A study of Mus musculus with 16 samples.

Results

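The 39 genes described here encode transcription factors and effectors of the amino acid stress response around ATF4 (8 genes), enzymes that make serine, asparagine and proline (6), enzymes of the one-carbon cycle (5) and cytosolic aminoacyl-tRNA synthetases (20). They were chosen by gene symbol, for what their products do, from the 31274 features of an expression table. Earlier results of these data were known at the time, so the counts below are no independent test of the choice. All 39 were found and all 39 passed the filter for testing, a mean of at least 1 FPKM. FPKM scales sequenced fragments by transcript length and by library depth, so levels of different genes are compared per unit of length.

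The table holds RNA-seq of whole mouse uterus in 4 groups of 4 libraries, which the labels call bioreplicates. One strain is PgrcrePgrALsL/+ (PRA below) and the other PgrcrePgrBLsL/+ (PRB below); in both a Pgr-driven Cre recombinase switches on a transgene for progesterone receptor isoform A or B, so that the transgene acts in cells in which the Pgr promoter is active. Every female was ovariectomized 2 weeks earlier and received oil or progesterone (P4) 6 h before collection, and was kept with female siblings until 8 weeks of age. The groups are PRA with oil, PRA with P4, PRB with oil and PRB with P4. The title of the series speaks of the epithelium, but the libraries are of the whole organ, and mice without a transgene were not analysed here. A protocol field describes mated females on day 4 of pregnancy instead, and the groups follow the titles and characteristics. The sources used here do not give the P4 dose or say whether replicates shared a litter, so p-values measure the spread between these libraries. The library positions in the labels set both strains and both treatments apart, so position cannot be told apart from either.

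ATF4 is a transcription factor whose mRNA is translated best when the initiation factor eIF2 is phosphorylated, as happens when amino acids run short or the endoplasmic reticulum is under stress; it then switches on genes for making, importing and charging amino acids. Serine, made from a glycolytic intermediate by PHGDH, PSAT1 and PSPH, gives its side-chain carbon to folate through the SHMT enzymes, and the MTHFD enzymes pass that carbon on for purine and thymidylate synthesis. Aminoacyl-tRNA synthetases join each amino acid to its tRNA and thereby supply the ribosome. In the uterus, progesterone acts through its receptor in epithelium, stroma and muscle and prepares the organ for implantation.

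Per library, FPKM summed to 499748 to 528785 in PRA with oil and 572846 to 594092 with P4. In PRB the sums were 507931 to 520113 with oil and 578463 to 595748 with P4. The P4 sums thus lay wholly above the oil sums in both strains, and the main test used the values without rescaling. The part of this in the differences with P4 was not tested. Fragment counts were not analysed here. Pgr itself, which also receives reads from either transgene to an unknown extent, was 66.7, 67.3, 56.8 and 68.9 FPKM in PRA with oil, 72.1, 76.4, 73.2 and 73.7 in PRA with P4, 87.6, 79.9, 79.4 and 87.3 in PRB with oil and 121, 122, 78.5 and 126 in PRB with P4. Marker sums for epithelium, stroma and smooth muscle were between 814 and 1876 FPKM in every library. PRB P4 replicate 3 stood apart, with a leukocyte marker sum of 331 FPKM against 122 to 150 in the remaining libraries of its group and the lowest Pgr value among them. PRA P4 replicate 1 was the lowest of its group for 33 of the 39 genes (84.6%, against 32.5% of all features tested). Members whose calls changed without either library are named below. Most other differences are given with all libraries only.

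After 6 h of P4 nearly the whole set was higher than with oil, in both strains. In PRA 38 of 39 genes rose and none fell, against 36.6% of all 15408 features tested that rose and 33.2% that fell (69.8% together). In PRB 36 of 39 rose and none fell, against 36.2% and 32.9% (69.1% together). Differences are of mean log2(FPKM + 1), which understates changes of weakly expressed genes, and a gene is said to have risen or fallen where limma's moderated test gave a Benjamini-Hochberg adjusted p under 0.05 over all features tested. The median difference over the 39 genes was 1.48 in PRA and 1.10 in PRB, where the median of all features tested was 0.01 and 0.00. Features averaging at least 5 FPKM had medians of 0.08 and 0.07. A rise of at least 1 on the log2 scale was met by 29 genes in PRA and 22 in PRB, against 6.94% and 7.17% of features. All 4 P4 libraries lay above all 4 oil libraries for 37 genes in PRA and 34 in PRB, against 35% and 32.6% of features. The labelled libraries are of bulk tissue, in which fewer cells of a type and less RNA per cell cannot be told apart.

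**Figure D1:**
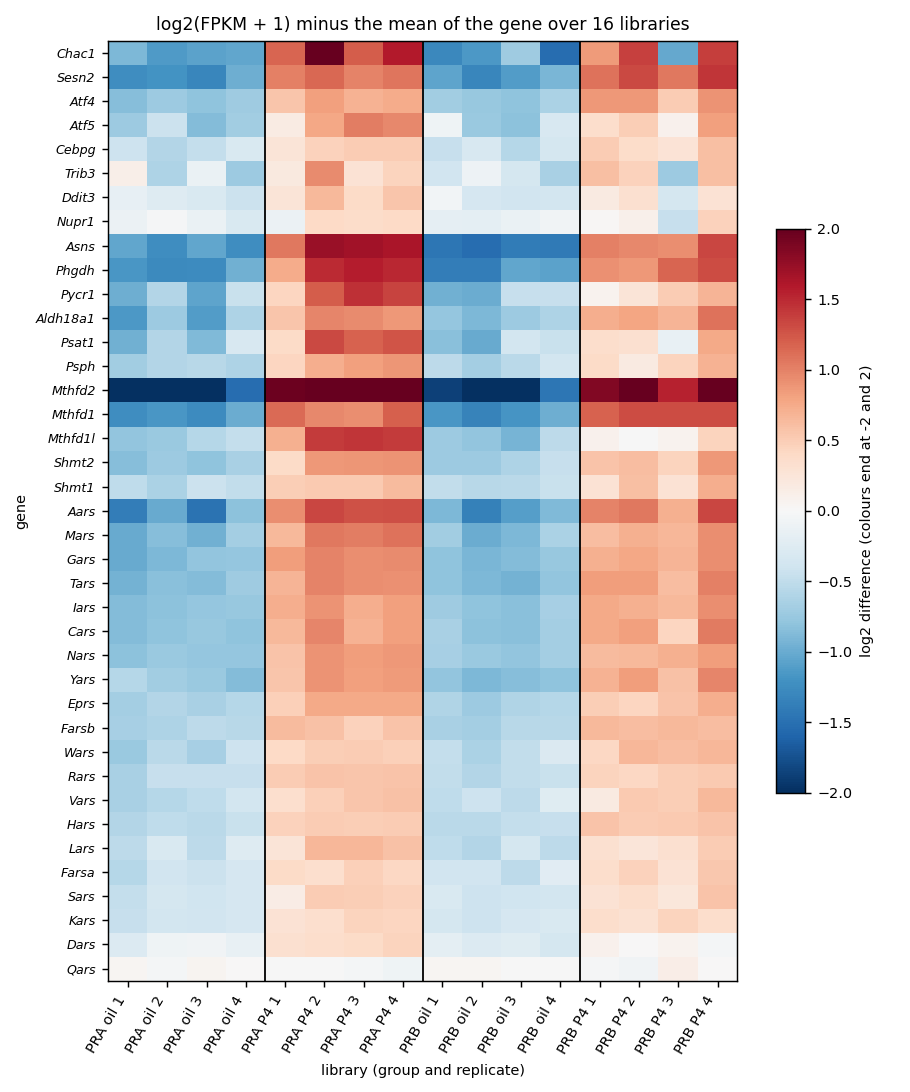
Heat map of the 39 genes (rows, by role) in the 16 libraries (columns, by group); colour gives log2(FPKM + 1) minus the mean of the gene over all 16 libraries, and colours end at -2 and 2. The P4 columns of both strains are above the oil columns for nearly every row, Qars is the row without a shift, and PRA P4 replicate 1 is the lowest of its group in 33 rows.

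**Figure D2:**
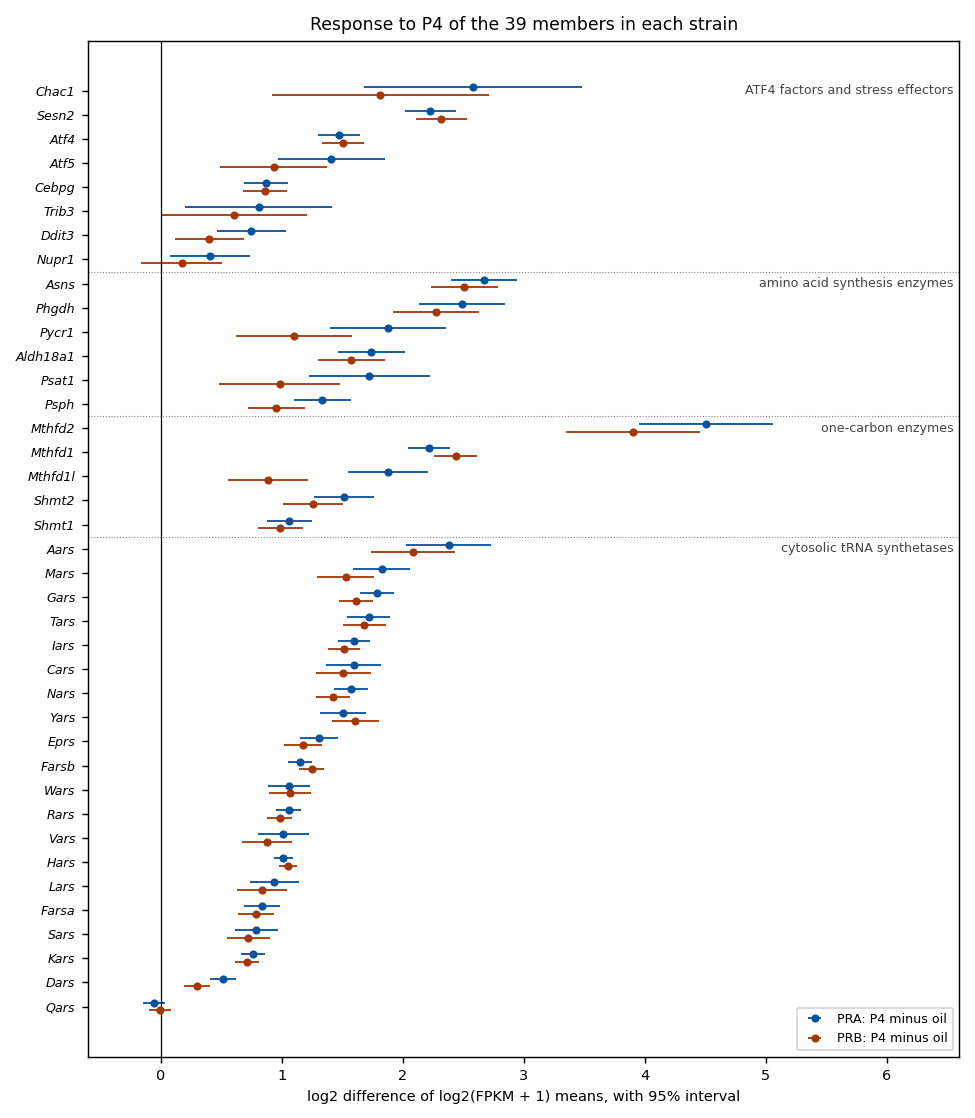
Difference between P4 and oil for each gene in PRA (blue) and PRB (red), as the log2 difference of mean log2(FPKM + 1) with its 95% interval from the fit over all features, ordered within each role by the PRA value. Mthfd2 lies farthest right in both strains (4.51 and 3.90), Qars lies at 0, and the intervals of both strains are apart for Mthfd1l and Dars. Of these genes only Mthfd1l was called in the test of the difference of responses.

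Promoter sequences are shown because several members are textbook targets of ATF4, which binds a composite C/EBP-ATF element. The set was drawn up around ATF4, so a share of motifs in it is not independent of that choice. The part of the motifs in the rise was not tested. RefSeq windows (GRCm38.p6) from 250 bases before to 50 after a transcript start were matched for 32 of the 39 genes. The core TGATGNAA was searched on both strands, and 10 of the 32 genes held it, in 29.4% of their windows against 3.97% of all 32851 windows. These were Aars (2 matches), Asns, Chac1, Gars, Iars, Nupr1, Pycr1, Tars, Trib3 and Yars. Among them, Nupr1 and Trib3 were not called higher with P4 in PRB. The E-box CACGTG, which MYC and related factors bind, can share bases with an end of that core and in no member did. It was held by 6 genes (Aars, Aldh18a1, Farsb, Iars, Nupr1 and Tars), in 17.6% of windows against 7.15%. None of the 5 one-carbon genes held either motif in its window. A match is a run of letters and not a measured binding site. The 250 bases before the start are printed below, 5′ to 3′ on the strand of the gene, with matches to either motif in capitals. They are those of 4 genes that rose in both strains and hold the core. The gene that rose most (Mthfd2) and the gene that rose in neither strain (Qars) are printed too.
Asns, chr6:7693210-7693459, minus strand: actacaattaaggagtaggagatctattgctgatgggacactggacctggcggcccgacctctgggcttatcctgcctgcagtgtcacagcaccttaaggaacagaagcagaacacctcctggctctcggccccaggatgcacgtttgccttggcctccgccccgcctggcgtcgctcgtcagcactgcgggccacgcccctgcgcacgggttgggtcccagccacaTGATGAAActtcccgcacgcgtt
Chac1, chr2:119350992-119351241, plus strand: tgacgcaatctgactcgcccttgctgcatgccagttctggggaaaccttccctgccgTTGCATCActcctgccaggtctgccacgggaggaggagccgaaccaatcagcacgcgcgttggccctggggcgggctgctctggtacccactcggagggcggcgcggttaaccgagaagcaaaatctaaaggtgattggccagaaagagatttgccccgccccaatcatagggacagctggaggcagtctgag
Aars, chr8:111033592-111033841, plus strand: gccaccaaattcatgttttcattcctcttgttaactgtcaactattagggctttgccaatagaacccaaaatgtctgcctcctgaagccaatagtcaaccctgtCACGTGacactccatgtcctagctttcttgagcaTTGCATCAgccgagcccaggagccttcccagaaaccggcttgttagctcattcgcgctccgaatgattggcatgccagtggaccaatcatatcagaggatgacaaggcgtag
Gars, chr6:55037751-55038000, plus strand: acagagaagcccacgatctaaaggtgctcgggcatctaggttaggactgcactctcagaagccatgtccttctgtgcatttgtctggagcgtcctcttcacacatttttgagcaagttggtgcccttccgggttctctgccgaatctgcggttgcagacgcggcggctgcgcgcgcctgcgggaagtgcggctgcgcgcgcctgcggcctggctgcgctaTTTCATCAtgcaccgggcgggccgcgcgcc
Mthfd2, chr6:83317605-83317854, minus strand: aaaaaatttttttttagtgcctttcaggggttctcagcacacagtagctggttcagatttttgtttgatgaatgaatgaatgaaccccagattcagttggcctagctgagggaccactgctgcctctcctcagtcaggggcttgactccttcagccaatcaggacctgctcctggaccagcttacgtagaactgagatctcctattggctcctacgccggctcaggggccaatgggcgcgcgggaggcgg
Qars, chr9:108507755-108508004, plus strand: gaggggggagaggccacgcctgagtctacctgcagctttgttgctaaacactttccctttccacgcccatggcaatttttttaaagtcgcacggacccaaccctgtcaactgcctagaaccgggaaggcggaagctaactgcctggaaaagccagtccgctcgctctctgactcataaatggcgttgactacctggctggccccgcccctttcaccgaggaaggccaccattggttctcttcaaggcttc
The first base of the core lies 23 bases before the start in Asns, 193 in Chac1, 112 in Aars and 30 in Gars. Aars also holds the E-box 146 bases before its start and a further copy of the core after it. Mthfd2, with the largest rise of the set, and Qars, with none, both lack the 2 motifs in these windows. The windows of Mthfd2, Aars and Qars lie inside the longer genes that GENCODE M21 annotates, whose own starts were not searched.

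Among the ATF4 factors and effectors all 8 genes rose in PRA and 6 of 8 in PRB, with median differences of 1.14 and 0.90. Atf4 itself (chr15:80255184-80257541, plus strand, GENCODE M21 on GRCm38) was read at 94.4, 103, 97.6 and 104 FPKM in PRA with oil and 252, 303, 277 and 287 with P4. In PRB it was 106, 101, 97.7 and 109.8 FPKM with oil and 311, 314, 244 and 319 with P4. Both P4 groups lay wholly above both oil groups, and the lowest PRB P4 value is that of replicate 3. The rise was 1.48 ± 0.08 (SE, n = 4 against 4, adjusted p = 1.45e-09) in PRA and 1.51 ± 0.08 (adjusted p = 1.1e-09) in PRB, 2.80-fold and 2.87-fold as ratios of mean FPKM. With a mean level of 279.7 FPKM in PRA and 297 in PRB after P4, Atf4 and its relative Atf5 were the most abundant transcripts of the set per unit of length. Atf5, a factor of the same family, was 123 ± 16.7 (SD, n = 4) FPKM with oil and 334 ± 80.5 with P4 in PRA. In PRB it was 142 ± 34.3 and 272 ± 58.6, and the differences were 1.41 ± 0.21 in PRA and 0.94 ± 0.21 in PRB. Exons of Atf5 are overlapped by Nup62 and Il4i1 on the other strand. The strandedness of the counting is not given, so its level may hold reads of these genes.

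Chac1, which degrades glutathione, was the least abundant member with oil. It read 2.34, 1.83, 1.96 and 2.01 FPKM in PRA with oil and 12.9, 28.2, 13.3 and 17.6 with P4. In PRB it read 1.53, 1.80, 2.80 and 1.15 with oil and 10.2, 14.9, 2.06 and 15.2 with P4, where replicate 3 stayed among the oil values. Its rise was 2.58 ± 0.42 (adjusted p = 6.56e-05) in PRA and 1.82 ± 0.42 (adjusted p = 0.00137) in PRB, and 2.37 in PRB without replicate 3. Sesn2, a leucine-binding inhibitor of the growth kinase mTORC1, was tighter: 3.53, 3.67, 3.36 and 4.46 FPKM with oil and 20.5, 22.6, 20.3 and 21.5 with P4 in PRA, and in PRB 4.18, 3.35, 3.92 and 4.69 with oil and 21.8, 25.8, 21.4 and 27.7 with P4. The P4 groups lay wholly above the oil groups, and the differences were 2.23 ± 0.10 and 2.32 ± 0.10. Cebpg, a C/EBP partner of ATF4, rose by 0.87 and 0.86. Its exons are overlapped by Gm44836 on the same strand and Gm45095 on the other, which leaves the split of reads uncertain.

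The remaining 3 genes of the group had the smallest differences in it. Ddit3, which encodes the factor CHOP, was 50.2 ± 3.67 FPKM with oil and 85.3 ± 10.4 with P4 in PRA, and 50.2 ± 5.95 and 67.5 ± 13.3 in PRB; the rises of 0.75 ± 0.13 and 0.40 ± 0.13 (adjusted p = 0.000151 and 0.015) were below the medians of the whole set. Without PRB P4 replicate 2 the PRB difference was 0.33, adjusted p = 0.0519. Exons of Ddit3 and of the synthetase gene Mars overlap on opposite strands, and since the strandedness of the counting is not given, reads in the overlap could have gone to either. Trib3, a pseudokinase that restrains ATF4 and CHOP, was 7.0, 3.77, 5.71 and 3.45 FPKM in PRA with oil and 7.38, 13.2, 8.01 and 9.03 with P4, and in PRB 4.61, 5.87, 4.78 and 3.69 with oil and 10.2, 9.16, 3.42 and 10.1 with P4. The difference of 0.81 ± 0.28 in PRA (adjusted p = 0.019) passed the test, and that of 0.60 ± 0.28 in PRB (adjusted p = 0.0698) did not. Leaving out PRB P4 replicate 3, the library with the high leukocyte markers, gave 0.93, adjusted p = 0.00144 in PRB, and quantile normalization of all libraries gave 0.77, adjusted p = 0.0215. The PRA call ended without PRA oil replicate 2 (adjusted p = 0.0542), PRA oil replicate 4 (0.0588) or PRA P4 replicate 2 (0.0658).

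Nupr1, a small chromatin-associated stress protein, had 0.41 ± 0.16 in PRA (adjusted p = 0.0295) and 0.17 ± 0.16 in PRB (adjusted p = 0.336), or 0.34, adjusted p = 0.0304 without PRB P4 replicate 3. Its PRA call ended without PRA oil replicate 3 or 4, or without PRA P4 replicate 2, 3 or 4, with adjusted p between 0.0507 and 0.0772.

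All 6 amino acid synthesis genes rose in both strains, with median differences of 1.81 in PRA and 1.34 in PRB. Asns, which makes asparagine from aspartate and glutamine (chr6:7675169-7693254, minus strand), was 8.04, 6.85, 8.03 and 6.90 FPKM in PRA with oil and 37.9, 60.9, 58.9 and 57 with P4. In PRB it was 5.88, 5.45, 6.04 and 5.99 with oil and 36.6, 35.5, 34.6 and 46.2 with P4. The P4 group lay wholly above the oil group in each strain, and PRA P4 replicate 1 fell among the PRB P4 values. The rise was 2.67 ± 0.13 (adjusted p = 5.48e-10) in PRA and 2.51 ± 0.13 (adjusted p = 7.47e-10) in PRB.

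Of the 3 enzymes of serine synthesis Phgdh had the largest difference in both strains. Phgdh, the first step, read 12.7, 11.8, 11.9 and 14.9 FPKM in PRA with oil and 50.5, 85.9, 90.9 and 86.5 with P4, and in PRB 10.8, 10.9, 14.1 and 13.7 with oil and 57.2, 55.1, 67.9 and 75 with P4. Its rise was 2.49 ± 0.17 and 2.27 ± 0.17. Psat1, the transaminase of the second step, read 21.6, 28.2, 22.9 and 34.3 FPKM with oil and 56.2, 109, 99 and 104 with P4 in PRA, and in PRB 23.8, 20.9, 33.1 and 31.3 with oil and 55.3, 54, 38.7 and 73.2 with P4. Its rise was 1.72 ± 0.23 (adjusted p = 1.11e-05) and 0.98 ± 0.23 (adjusted p = 0.00164). Psph, the phosphatase that releases serine, rose by 1.33 ± 0.11 and 0.95 ± 0.11. Its exons are overlapped by Cct6a on the other strand, so its values carry the same uncertainty as Ddit3. In PRA with P4, replicate 1 was far below the rest for Phgdh and Psat1. Differences between these genes were not tested.

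For proline, Aldh18a1 makes the glutamate semialdehyde precursor and Pycr1 carries out the last reduction in mitochondria. Aldh18a1 rose by 1.74 ± 0.13 in PRA and 1.57 ± 0.13 in PRB. Pycr1 read 1.98, 2.91, 1.85 and 3.31 FPKM with oil and 6.94, 12.6, 15.1 and 14.1 with P4 in PRA, and in PRB 2.02, 1.95, 3.27 and 3.26 with oil and 5.18, 6.03, 7.33 and 8.45 with P4. These were rises of 1.88 ± 0.22 (adjusted p = 3e-06) and 1.10 ± 0.22 (adjusted p = 0.000491).

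All 5 one-carbon enzymes rose in both strains, with median differences of 1.88 and 1.26. Mthfd2 (chr6:83305691-83325908, minus strand), the mitochondrial dehydrogenase and cyclohydrolase that is abundant in embryos and tumours and scarce in most adult tissues, had the largest difference of the set. It read 1.49, 2.92, 1.66 and 4.77 FPKM in PRA with oil and 63.4, 89.6, 78.9 and 84.8 with P4. In PRB the values were 3.53, 2.16, 2.73 and 5.09 with oil and 59, 71.2, 46.9 and 77.6 with P4. With oil it was among the 3 least abundant members in PRA, and with P4 every library of both strains was above every oil library. The rise was 4.51 ± 0.26 (adjusted p = 2.18e-09) in PRA and 3.90 ± 0.26 (adjusted p = 7.47e-09) in PRB, or 29.2-fold and 18.9-fold as ratios of mean FPKM.

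Mthfd1, the cytosolic enzyme with 3 activities that receives the carbon leaving mitochondria, was 10.9, 11.6, 10.8 and 13.2 FPKM in PRA with oil and 60.7, 53.8, 52.6 and 63.5 with P4, and in PRB 11.6, 10.2, 11.4 and 13.4 with oil and 62.7, 68.6, 68.9 and 68.6 with P4. The P4 groups lay wholly above the oil groups. It rose by 2.22 ± 0.08 in PRA and 2.44 ± 0.08 in PRB. Mthfd1l, the mitochondrial synthetase that releases that carbon as formate (chr10:3973118-4167081, plus strand), was 3.18, 3.30, 3.85 and 4.18 FPKM in PRA with oil and 10.9, 18, 18.5 and 18 with P4. In PRB it was 3.37, 3.18, 2.77 and 4.03 with oil and 6.69, 6.15, 6.56 and 8.87 with P4. Every P4 library of PRA lay above every P4 library of PRB. Its rise was 1.88 ± 0.15 (adjusted p = 6.44e-08) in PRA and 0.89 ± 0.15 (adjusted p = 0.000119) in PRB. Shmt2, the mitochondrial serine hydroxymethyltransferase, rose by 1.52 ± 0.11 and 1.26 ± 0.11, and its cytosolic form Shmt1 by 1.06 ± 0.09 and 0.99 ± 0.09. Exons of Shmt1 and of Shmt2 are each overlapped by a gene on the other strand (Smcr8 and Ndufa4l2), so their values carry the same uncertainty as Ddit3.

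**Figure D3:**
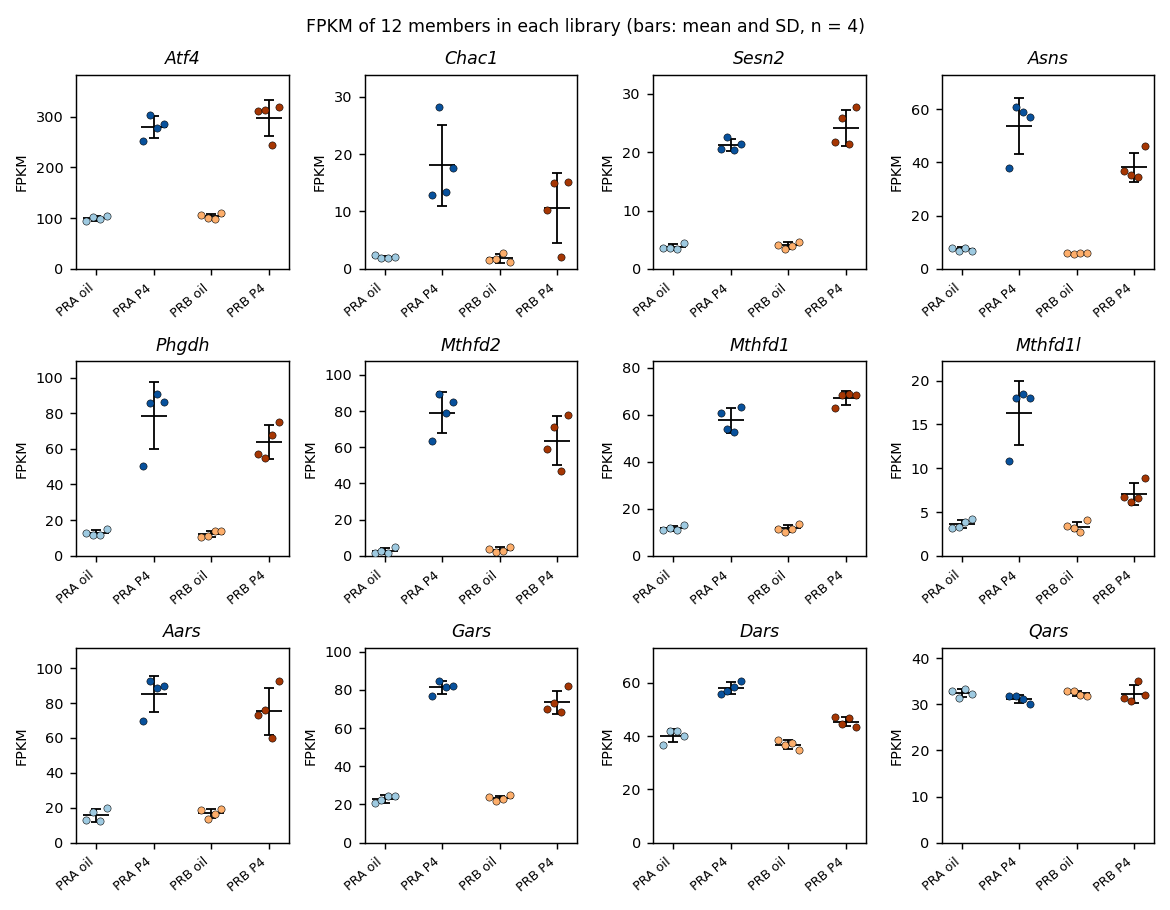
FPKM of 12 of the genes in each library (points) with the mean and SD of each group of 4 (horizontal bar and whiskers); each panel has its own vertical axis from 0. The P4 points lie above the oil points for Mthfd2, Asns and Atf4 in both strains, whereas the Qars groups overlap.

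Of the 20 cytosolic synthetase genes 19 rose in each strain and none fell, with median differences of 1.11 in PRA and 1.12 in PRB. Their summed level was 442 to 494 FPKM per library in PRA with oil and 1009 to 1163 with P4, and 456 to 499 and 1020.0 to 1167 in PRB, and the P4 sums did not overlap the oil sums. Aars (alanine; chr8:111033144-111057664, plus strand) rose most, from 13.2, 17.5, 12.3 and 20.1 FPKM to 69.6, 92.9, 88.8 and 89.7 in PRA and from 18.8, 13.6, 16.2 and 19.2 to 73, 75.9, 59.8 and 92.7 in PRB. Its differences were 2.38 ± 0.16 (adjusted p = 1.11e-08) and 2.08 ± 0.16 (adjusted p = 3.95e-08). An exon of Aars is overlapped by Exosc6 on the same strand, which leaves the split of reads between them uncertain.

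The genes for methionine (Mars, 1.83 and 1.53), glycine (Gars, 1.79 and 1.61), threonine (Tars, 1.72 and 1.68), isoleucine (Iars, 1.60 and 1.52), cysteine (Cars, 1.60 and 1.51), asparagine (Nars, 1.57 and 1.42) and tyrosine (Yars, 1.51 and 1.61) followed in PRA and PRB. Eprs, the fused enzyme for glutamate and proline, rose by 1.31 and 1.18. The 2 phenylalanine subunits differed in size, with 1.15 and 1.25 for Farsb and 0.84 and 0.79 for Farsa. Wars, Rars, Vars, Hars, Lars, Sars and Kars (tryptophan, arginine, valine, histidine, leucine, serine and lysine) rose by between 0.76 and 1.06 in PRA and between 0.71 and 1.07 in PRB.

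At the low end stood the genes for aspartate and glutamine. Dars was 36.8, 41.8, 42.1 and 40.2 FPKM in PRA with oil and 55.7, 56.9, 58.5 and 60.9 with P4, and in PRB 38.7, 36.6, 37.4 and 34.7 with oil and 47.2, 44.6, 46.9 and 43.5 with P4. It rose by 0.52 ± 0.05 and 0.30 ± 0.05 (adjusted p = 3.6e-07 and 9.46e-05), and after quantile normalization the PRB difference was 0.09, adjusted p = 0.127. Qars (chr9:108507706-108515941, plus strand) was 33, 31.3, 33.2 and 32.3 FPKM in PRA with oil and 31.7, 31.9, 31.1 and 30 with P4, and in PRB 32.9, 32.8, 32.1 and 31.8 with oil and 31.4, 30.6, 35.1 and 32.1 with P4. The groups overlap, and the differences were -0.06 ± 0.04 (95% interval -0.15 to 0.03, adjusted p = 0.245) and -0.01 ± 0.04 (-0.10 to 0.08, adjusted p = 0.91). After quantile normalization Qars was called lower in PRA (-0.20, adjusted p = 0.00107) and PRB (-0.18, adjusted p = 0.00181).

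Synthetases fall into 2 structural classes, and several sit in a multisynthetase complex held together by scaffold proteins. The 9 class I genes had median differences of 1.06 in PRA and 1.07 in PRB, and the 10 class II genes 1.08 and 1.15, with Eprs holding a domain of each class. The 8 genes whose products are in the complex had medians of 1.00 and 0.91 and ranged from -0.06 (Qars) to 1.83 (Mars) in PRA, while the 12 outside it had 1.33 and 1.34 and ranged from 0.79 to 2.38. These ranges overlap widely. The 3 scaffold genes of the complex rose in both strains, Eef1e1 by 1.71 and 1.66, Aimp2 by 1.34 and 1.27 and Aimp1 by 0.29 and 0.19; after quantile normalization Aimp1 had -0.06 in PRB (adjusted p = 0.339).

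Mitochondria have a separate set of synthetases, encoded by other nuclear genes. Of 17 tested, 7 rose (41.2%) and 4 fell (23.5%) in PRA, against 36.6% and 33.2% of all features. In PRB 7 rose (41.2%) and 6 fell (35.3%), against 36.2% and 32.9%, and 3 fell after quantile normalization, with a median of -0.03. These shares are near the background, and the medians were 0.16 and 0.12. Among the largest differences were those of Yars2 (1.05 and 1.00), Nars2 (0.77 and 0.66) and Mars2 (0.70 and 0.77). Where each compartment has a separate gene, the cytosolic gene had the larger difference in 16 of 16 pairs in each strain, by a median of 1.04 in PRA (0.31 to 1.85) and 0.86 in PRB (0.41 to 1.99). Exons of Hars and its counterpart Hars2 overlap on opposite strands, so reads in the overlap could have gone to either gene of this pair.

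**Figure D4:**
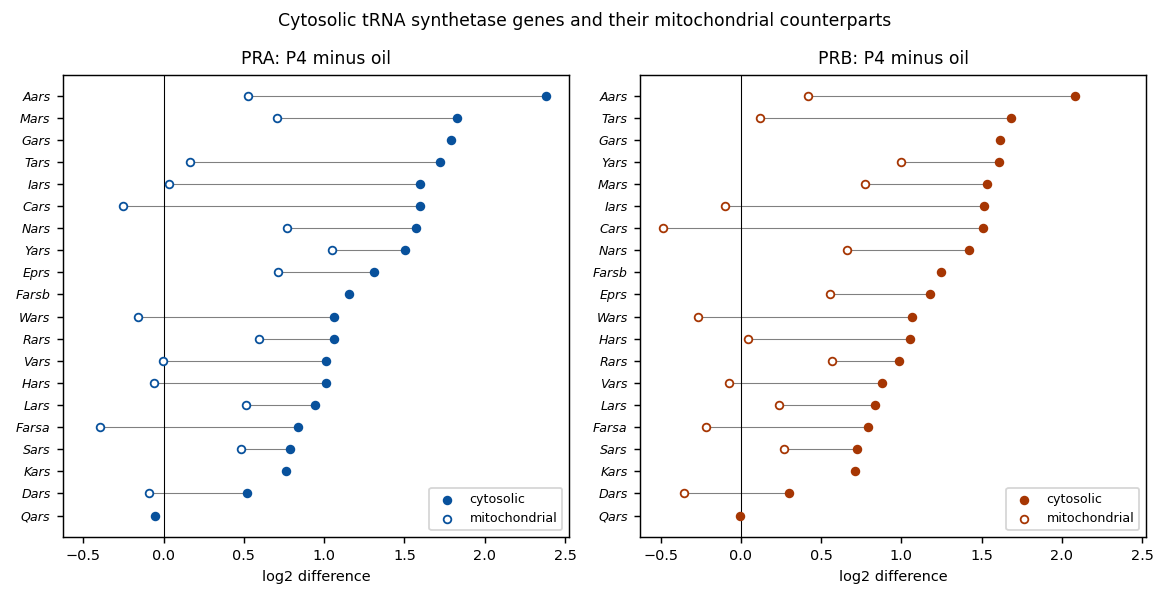
Log2 difference between P4 and oil for each cytosolic synthetase gene and, where the list holds one, its mitochondrial counterpart, in PRA and PRB. Each cytosolic value lies above its mitochondrial one in the 16 pairs drawn; Gars, Kars, Farsb and Qars have no separate mitochondrial gene in the list.

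Other genes of the same pathways were taken from lists of the pathways' further members, and each count is to be read against the 36.6% of all features that rose and 33.2% that fell in PRA, and 36.2% and 32.9% in PRB. Among 8 genes for eIF2 alpha, its kinases and its phosphatase subunits, 5 rose in PRA (62.5%) and 6 in PRB (75%) and none fell, led by Eif2s1, the alpha subunit itself (1.39 and 1.34), and Ppp1r15b, a phosphatase subunit (0.95 and 0.98). Of 12 further ATF4 target genes tested, 7 rose (58.3%) and 2 fell (16.7%) in PRA, and 8 rose (66.7%) and 1 fell (8.33%) in PRB. Gdf15, a secreted stress hormone, had 2.21 and 1.23, the cystathionine lyase gene Cth 1.43 and 1.84, and the growth-arrest gene Gadd45a fell by 1.29 and 1.61.

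In the wider folate cycle 10 of 18 genes rose (55.6%) and 6 fell (33.3%) in PRA, and 9 rose (50%) and 6 fell (33.3%) in PRB, against 36.6% and 33.2% of all features in PRA and 36.2% and 32.9% in PRB. The share that fell is that of the background. Aldh1l2, which oxidizes formyl-folate in mitochondria, rose by 2.27 and 1.43, and Fpgs, which retains folates in cells, by 1.17 and 1.11. Gldc, which feeds carbon from glycine into the cycle, rose by 1.85 and 3.29, and the strains' responses differed by 1.43 ± 0.13 (adjusted p = 0.000189). Of 13 purine synthesis genes, which use the carbon, 11 rose (84.6%) and 1 fell (7.69%) in PRA and 10 rose (76.9%) and 1 fell in PRB. Gmps had 1.18 and 1.77, and Ppat, the first committed step, 1.04 and 0.90. Of 8 methionine-cycle and transsulfuration genes 7 rose in PRA (87.5%) and 5 in PRB (62.5%) and 1 fell in each strain (12.5%), with Mat2a, which makes the methyl donor, at 1.15 and 1.13. Cth belongs to this list as well as to that of ATF4 targets.

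Markers of cell types and of proliferation were summed in each library, and their counts are given beside 36.6% of all features that rose and 33.2% that fell in PRA, and 36.2% and 32.9% in PRB. The proliferation marker sum was 66.5 to 151 FPKM in PRA with oil and 201 to 294 with P4, with 5 of 8 markers risen, and 77.8 to 141 and 106 to 165 in PRB, with 1 of 8 risen. The epithelial sum was 814 to 916 and 990.2 to 1254 FPKM in PRA (4 of 10 risen, 2 fallen), and 853 to 897 and 1276 to 1595 in PRB (4 of 10 risen). The endothelial sum was 216 to 274 and 142 to 175 in PRA, with 3 of 6 fallen, and 233 to 257 and 197 to 206 in PRB, with 1 of 6 fallen. Of 10 stromal markers 5 rose and 4 fell in PRA, and 4 rose and 4 fell in PRB. Of 8 smooth muscle markers 3 rose and 0 fell in PRA, and 2 rose and 1 fell in PRB. Of 9 leukocyte markers tested 1 rose and 1 fell in PRA, and 1 rose and 0 fell in PRB. The shares of epithelial, smooth muscle and leukocyte markers that rose were near or below those of all features (40%, 37.5% and 11.1% in PRA, and 40%, 25% and 11.1% in PRB). In PRA 50% of stromal and 62.5% of proliferation markers rose, above that share, and 50% of endothelial markers fell. In PRB 4 of 10 stromal and 1 of 8 proliferation markers rose. Epithelial sums with P4 lay wholly above those with oil in both strains. The part of these markers in the rise of the 39 genes was not tested. With P4 the proliferation sums were lower in PRB than in PRA, and the synthetase sums of the 2 strains overlapped. Of the 39 genes 4 were called lower in PRB with P4, against 8.29% of features. How these go together was not tested.

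With oil, none of the 39 genes differed between PRB and PRA, in a comparison in which limma called 0.117% of all features (0.0389% higher and 0.0779% lower in PRB). At an unadjusted p under 0.05, 2 members (Asns and Dars) were lower in PRB and 0 higher, against 3.3% and 1.9% of features. Their differences lay between -0.30 and 0.28 with a median of 0.02. The lowest was Asns, whose PRB libraries all lay below the PRA libraries (5.45 to 6.04 against 6.85 to 8.04 FPKM, -0.30 ± 0.13, adjusted p = 0.874), as did 2.14% of features. The highest was Mthfd2 (0.28 ± 0.26, adjusted p = 1), a gene near the bottom of the set with oil.

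With P4, 4 of the 39 genes were lower in PRB than in PRA and none was higher, against 8.29% of features called lower and 7.75% called higher; 4 of 39 is close to that background. At an unadjusted p under 0.05, 9 were lower and 1, Mthfd1, was higher, against 16.4% and 14.2% of features. Mthfd1l had the largest difference, -1.09 ± 0.15 (adjusted p = 0.000527), with a PRB level 0.432 times that of PRA. Dars, at -0.34 ± 0.05 (adjusted p = 0.000648), was also below in every library of PRB, and both calls held in all alternatives that were run. Pycr1 (-0.74 ± 0.22, adjusted p = 0.0387) and Asns (-0.46 ± 0.13, adjusted p = 0.0257) were the others, and their strains overlap. Groups that did not overlap were found for 2 genes below and 1 above, Hars, in PRB, against 10.9% and 9.23% of features.

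The further genes called changed with the libraries and settings. So did the features called in either direction, 2471 with all libraries and 1412 to 2612 without single libraries. The share of features called lower in each setting is not given, so the counts below lack a background. Without PRA P4 replicate 1, the library lowest for most members, 11 genes were lower in PRB: the 4 above with Phgdh, Psat1, Psph, Eprs, Lars, Mars and Nars. Without PRB P4 replicate 4, the highest of its group for 30 of 39 genes, 7 were lower. Without PRA P4 replicate 2, 3 or 4 or PRB P4 replicate 1 or 2, only Mthfd1l and Dars were, with adjusted p for Asns between 0.0556 and 0.0811 and for Pycr1 between 0.0912 and 0.114. Without PRB P4 replicate 3 Asns had -0.42, adjusted p = 0.0552. With PRA P4 replicate 1 and PRB P4 replicate 3 both left out, 7 genes were lower, 5 of them amino acid synthesis enzymes. Psat1, at -0.71 ± 0.23 with all libraries, had an adjusted p of 0.051, and was called with all libraries where the filter was a mean of 5 FPKM (0.0493) or the replicate number was a block (0.0301). Psph was also called lower with that block (-0.29, adjusted p = 0.0465).

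**Figure D5:**
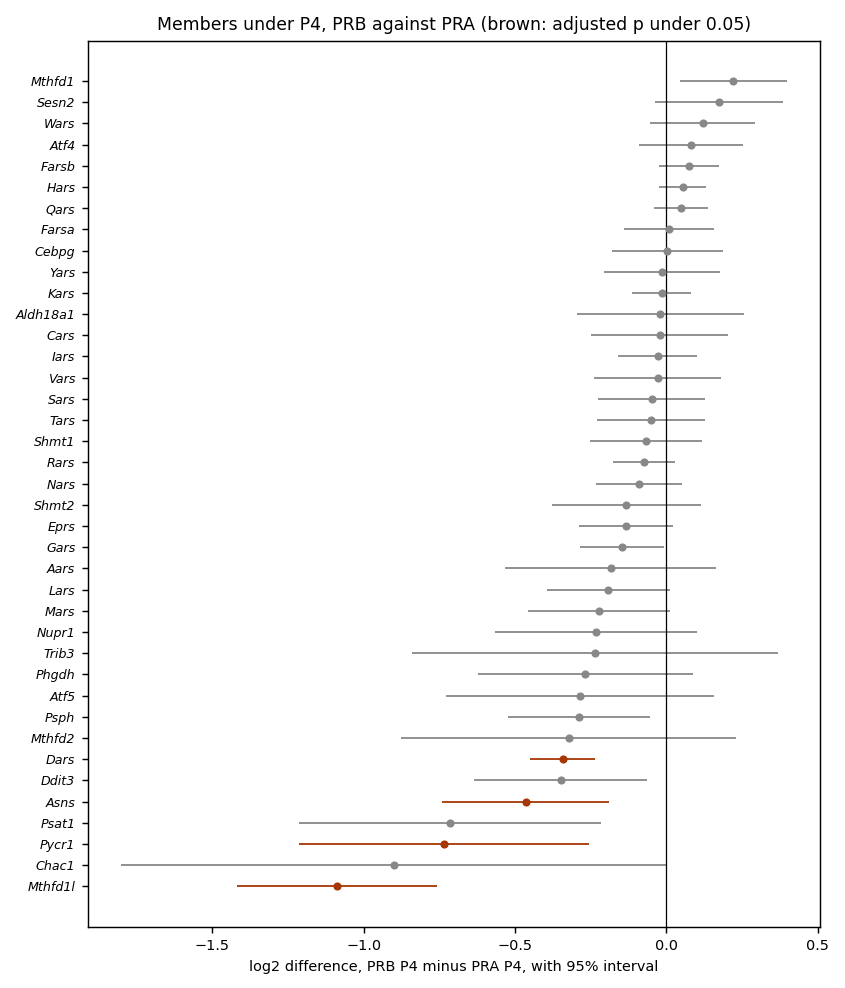
Difference between PRB and PRA with P4 for each of the 39 genes (log2 scale, points with 95% intervals, ordered by size). The 4 genes called lower in PRB are brown, and Mthfd1l lies farthest below 0 at -1.09.

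The P4 responses themselves were compared by the interaction of strain and treatment. Mthfd1l was the only member called. Its response was smaller in PRB, with a difference (PRB minus PRA, log2 scale) of -0.99 ± 0.22 and an adjusted p of 0.0297, against 2.28% of all features called (1.47% higher and 0.811% lower). At an unadjusted p under 0.05, 5 members were lower and 0 higher, against 7.63% and 8.85% of features. The call ended without PRA oil replicate 1, 2 or 3, PRA P4 replicate 2, 3 or 4, PRB oil replicate 1 or 4, or PRB P4 replicate 1 or 2. Differences there lay between -1.02 and -0.92, with adjusted p between 0.0525 and 0.0746. It held without PRA P4 replicate 1 (-1.16, adjusted p = 0.0026) and without PRB P4 replicate 3 (-0.96, adjusted p = 0.0416). Without both, a choice made after seeing the data, the difference was -1.14 (adjusted p = 0.00397). For 31 of the 39 genes the point estimate of PRB minus PRA was below 0 (79.5%, against 48.4% of features). The exceptions were 5 synthetase genes and 3 others. The features include those that fell, where a value below 0 does not mean a smaller response. Genes measured in the same libraries are not independent, and these shares were not compared by a test. Chac1 (-0.76 ± 0.59, adjusted p = 0.564), Pycr1 (-0.78 ± 0.32, adjusted p = 0.23) and Psat1 (-0.74 ± 0.33, adjusted p = 0.281) followed Mthfd1l in size and did not pass the test, and Chac1 had -0.21 without PRB P4 replicate 3. Mthfd2, with the largest response in either strain, differed by -0.60 ± 0.36 (95% interval -1.38 to 0.18). The interval for Atf4 was -0.21 to 0.27, and for Mthfd1, the cytosolic partner of Mthfd1l, -0.03 to 0.47.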

How the data were processed

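RNA was extracted from whole uterus with Trizol and a column kit and made into Illumina libraries, per the labels. The authors deposited FPKM values of 31274 features in 16 libraries. The submitters' processing notes name the mm10 build, Cuffdiff, Cufflinks 2.0.2 and TopHat2 2.0.4, without roles or order. For the deposited FPKM, the sources used here do not give the annotation, the strandedness or how libraries were scaled. Without fragment counts the depth is unknown, and no counting interval is given.

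Values were analysed as log2(FPKM + 1) with limma 3.58.1 in R 4.3.3. Features averaging 1 FPKM or more over the libraries (15408) were fitted by 1 model of the 4 group means, and empirical Bayes tests with an intensity trend were two-sided and adjusted by Benjamini-Hochberg over all of them at 0.05. The procedure was also run on simulated data, in which noise was drawn separately for each gene and a small part of the features changed. That setting does not cover the share of features that changed with P4, or deviations shared by genes of a library. Each strain was compared between P4 and oil, and so were the strains with oil and with P4, and the difference of the responses; the P4 contrasts share libraries with the strain contrasts. The members and lists were chosen with earlier results of these data known. All 39 members may be named, and of each further list up to 4 genes called with the largest differences in a P4 contrast, beside Pgr and Myc. Gene positions are those of GENCODE M21 (GRCm38) and promoter windows those of RefSeq (GRCm38.p6). Exons of 13 members are overlapped by a gene on the other strand and of 2 on the same strand, whose reads cannot be told apart without strand. Alternatives changed the pseudocount, the filter, the scaling, the model and the libraries left out.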

Additional observations from a re-analysis of the deposited data

Results flagged for a closer look

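In groups of 4 libraries, 18 of 156 gene and group combinations held 1 library whose gap to the nearest other was, as a share of the group's range, above Dixon's 95% critical value; chance flags about 1 in 20 groups. PRA P4 replicate 1 accounted for 12 of them, low each time: Asns at 37.9 FPKM (57.0 to 60.9 in the other libraries), Phgdh at 50.5 (85.9 to 90.9), Psat1 at 56.2 (99.0 to 109), Shmt2 at 51.0 (71.9 to 73.1), Mthfd1l at 10.9 (18 to 18.5) and Nupr1 at 37.4 (53.1 to 54.2). Among synthetases the same library was low for Aars at 69.6, Eprs at 49.5, Hars at 46.0, Mars at 39.3, Rars at 47.0 and Sars at 36.1 FPKM. Genes measured in the same library are not independent, so these are 1 library seen 12 times. All P4 calls of these 12 genes in PRA were also made without that library.

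PRB P4 replicate 3 was low for Atf4 at 244 FPKM (311 to 319 in the others) and Trib3 at 3.42 (9.16 to 10.2). Single flags fell on Mthfd1 in PRB P4 replicate 1 (62.7 FPKM, low), Ddit3 in PRB oil replicate 1 (59.1, high), Eprs in PRB oil replicate 2 (21.1, low) and Rars in PRA oil replicate 1 (20.6, low).

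The response of Mthfd1l to P4 differed between the strains in the interaction test, by -0.99 on the log2 scale (PRB minus PRA).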

How the results depend on the processing

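The direction of every member called for P4 in PRA or in PRB held in each alternative run, and 36 of 38 calls in PRA and 34 of 36 in PRB were made in all of them. The number of members risen was 36 to 38 in PRA and 35 to 38 in PRB when single libraries were left out. Exceptions were Nupr1 and Trib3 in PRA, Ddit3 and Dars in PRB. Quantile normalization called 1 member lower in each strain (Qars), ended the calls of Nupr1 in PRA (0.23, adjusted p = 0.168) and of Ddit3 (0.14, adjusted p = 0.342) and Dars in PRB, gained Trib3 in PRB (0.77, adjusted p = 0.0215) and turned the scaffold gene Aimp1 in PRB to -0.0641 (adjusted p = 0.339). The cause was not tested. Features called ranged from 10186 to 11111 in PRA and 10180 to 10663 in PRB without single libraries.

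Between the strains with oil, 18 features were called, 33 without a filter, 6 with the libraries of the contrast alone, 8 to 29 without single libraries and 35 without PRA oil replicates 2 and 4 together; the last was chosen after seeing the data, as was leaving out PRA P4 replicate 1 and PRB P4 replicate 3 together. With P4 the 2471 features called became 1640 with the libraries of the contrast alone and 1412 to 2612 without single libraries. Members lower in PRB numbered 2 with the libraries of the contrast alone, 2 to 11 without single libraries and 7 without those 2 P4 libraries. Pycr1 was also not called with a pseudocount of 0.1 (adjusted p = 0.0538), without a filter (0.0598) or after quantile normalization (0.0528). For the difference of responses 352 features were called, 155 to 494 without single libraries, 685 without those P4 libraries and 934 without the 2 oil libraries, and 0 to 1 members were lower without single libraries.

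Deviations of same-numbered libraries correlated between -0.23 and 0.31 (24 pairs, median 0.03, 6 of them over 0.1). Those of differently numbered libraries correlated between -0.27 and 0.34 (72 pairs, median -0.003, 9 of them over 0.1). Whether a replicate number marks a shared origin was not tested. With the replicate number as a block the P4 counts of 38 and 36 members stayed, and with P4 1 member (Mthfd1) was called higher in PRB and Psat1 (adjusted p = 0.0301) and Psph (0.0465) were called lower beside the 4 above. Precision is limited by 4 libraries a group and by an unknown depth.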

Other observations

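Further lists are read against the 36.6% of all features that rose and 33.2% that fell in PRA, and 36.2% and 32.9% in PRB. Of 16 translation initiation and elongation factor genes 13 rose (81.2%) and 1 fell (6.25%) in each strain, among them the cap-binding protein gene Eif4e (1.53 in PRA and 1.44 in PRB), the exchange factor subunit gene Eif2b3 (1.36 and 1.29) and Eif4ebp1, which encodes a repressor of Eif4e's product (1.11 and 1.34). Of 17 further genes of amino acid synthesis and breakdown tested, 11 rose (64.7%) and 1 fell (5.88%) in PRA and 12 rose (70.6%) and 1 fell in PRB, including the argininosuccinate lyase gene Asl (1.70 and 1.78) and the aspartate aminotransferase gene Got1 (1.44 and 1.38).

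Of MYC and its partners, whose E-box was searched above, 2 of 9 rose (22.2%) and 6 fell (66.7%) in PRA, and 3 rose (33.3%) and 6 fell (66.7%) in PRB, against 36.6% and 33.2% of all features in PRA and 36.2% and 32.9% in PRB. Myc was 43.7, 34, 44.2 and 35.7 FPKM in PRA with oil and 70.7, 83.7, 86.1 and 82.6 with P4, and in PRB 41.9, 46.6, 38.6 and 56.9 with oil and 78, 90.8, 73.5 and 104 with P4. It rose by 1.02 ± 0.13 (adjusted p = 6.33e-06) and 0.90 ± 0.13 (adjusted p = 2.29e-05). The MYC antagonist gene Mxi1 fell by 1.97 and 1.62, and Mycn by 2.18 and 2.43. Mycl fell by 0.57 in PRA and 2.02 in PRB, and its responses differed by -1.45 ± 0.21 (adjusted p = 0.00353).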
